A study of Drosophila melanogaster with 6 samples.

Results

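The 10 genes described here were CG34165, CG15282, CG10163, CG7763, CG3726, CG3168, CG17571, Srg2, CG31468 and CG13482, which had some of the largest rises in Drosophila melanogaster larvae that overexpressed the nuclear receptor DHR96. They were chosen by that measured difference between gain and control larvae, as genes little studied in flies, so it is given for them as a description and without a test. Each had a single probe set, and they were 10 of 11983 genes with a probe set of their own on the array. All 10 passed the filter for testing, CG31468 through its gain arrays alone. The filter asked for a log2 intensity of 4, called the floor, on at least 3 of the 6 arrays.

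The study read messenger RNA of whole, yeast-fed early third-instar larvae on 3 control and 3 gain arrays. Control larvae were w1118, a white-eyed laboratory strain. Gain larvae were of a transgenic line made in w1118 by P-element transformation, in which a full-length DHR96 cDNA stands under heat-shock control and is thus not limited to a tissue. Larvae of both groups were staged at the moult from the second to the third instar, given 1 h at 37.5 °C beginning 3 h later, and taken for RNA 4 h after that. The arrays do not separate the induced receptor from other differences between the line and its host, since transgenic larvae without heat are not analysed here. The labels do not say whether the samples of a group were separate cultures, so the spread between these samples may be technical. The standard errors (SE) given here are the moderated ones of the limma fit described below. In them the variance of each test is drawn toward a value shared by all tests, so they are not the spread of that gene alone.

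DHR96, the product of Hr96, is the fly relative of the vertebrate xenobiotic receptors PXR and CAR. It is a ligand-regulated transcription factor known in flies for its part in the response to toxic compounds and in the handling of cholesterol and dietary fat, and it is found in the gut, the fat body and the Malpighian tubules. The classes that follow were assigned from general knowledge and were not checked against an annotation or a sequence. Of the 10 genes, CG10163 was placed with the pancreatic-type lipases, which split dietary and stored lipids, and CG17571 with the trypsin-like serine proteases. CG7763 encodes a C-type lectin, of a family of secreted or membrane proteins that bind sugars. CG3168 encodes a membrane transporter of the major facilitator class, for which the reference table lists the synonym Slc22a18, and CG3726 a BTB-domain protein of a class that holds many transcription factors. No role is given here for CG34165, CG15282, Srg2, CG31468 and CG13482.

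On the arrays 44.5% to 45.0% of probe sets reached the floor. Hr96 had log2 intensities of 9.47, 9.82 and 9.50 in control against 14.73, 14.71 and 14.64 in gain, which is 5.10 ± 0.13 apart (SE, n = 3 per group; limma, adjusted p = 1.86e-05). Of 7974 tests 36, or 0.451%, were called higher in gain and 277, or 3.47%, lower, and the 10 genes are among the 36 because they were taken from there. Under the 3 other scalings of the arrays the counts were 129 to 204 higher and 252 to 349 lower. Every gain array lay above every control array in 438 tests, 5.49% of all, among them the 10 genes, which again follows from how they were picked. The median difference, with values below the floor taken as measured, was 1.79 over the 10 genes and -0.15 over all tests. Array gain 2 lay low as a whole: the median test was 0.19 below its gain mean there, against 0.07 above on gain 1 and 0.12 above on gain 3.

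CG34165 had the largest difference of the 10. Its control arrays read 8.36, 8.60 and 9.56 (log2 intensity, arrays 1 to 3) and its gain arrays 12.99, 13.13 and 13.67. The groups were 3.43 apart at their nearest, the distance from control 3 to gain 1, while the control arrays spanned 1.21. The difference was 4.43 ± 0.34 (SE, n = 3 per group), or 21.5-fold.

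CG15282 is the gene next to CG34165 on chromosome arm 2L, with no annotated gene between them in the Release 6 plus ISO1 MT gene table. Its log2 intensity was 10.68, 10.90 and 11.43 in control against 13.94, 13.18 and 13.25 in gain, so that the difference was 2.45 ± 0.27 (SE, n = 3 per group), or 5.47-fold. The groups lay 1.75 apart at their nearest. Both neighbours had their highest control value on control 3 and their lowest on control 1, but among gain arrays CG34165 was highest on gain 3 and CG15282 on gain 1. They were the only pair of the 10 genes that neighboured each other within 5 genes.

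**Figure D1:**
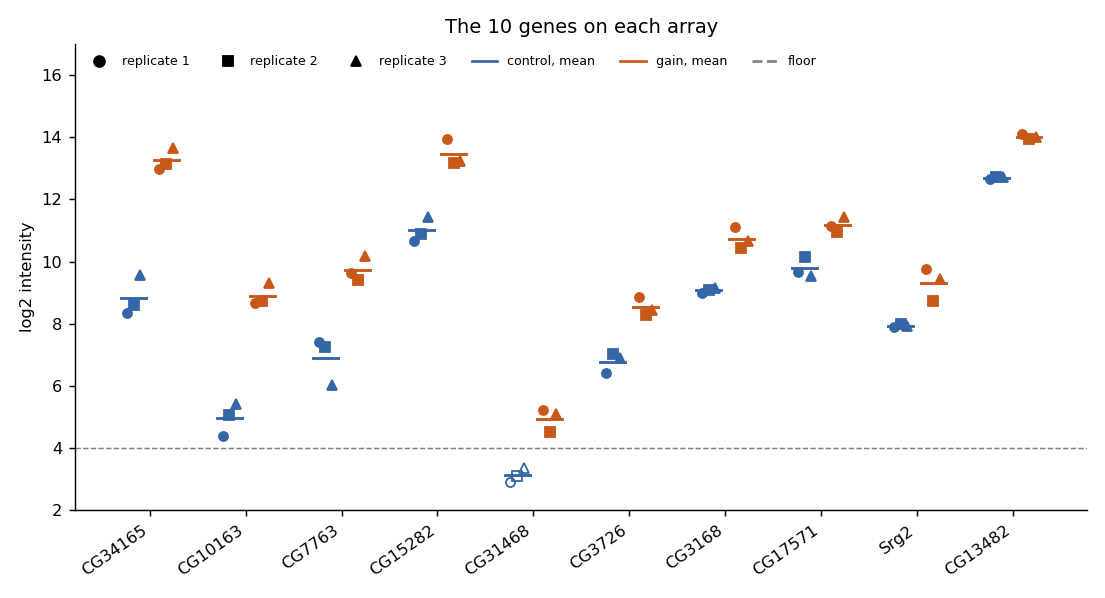
Log2 intensity (y axis) of each of the 10 genes (x axis, ordered by difference) on the 3 control arrays (blue) and 3 gain arrays (orange). Marker shapes give the replicate number, short bars the group means, the dashed line the floor of 4, and open markers values below it. In each gene the 3 gain arrays lie above the 3 control arrays, and the control values of CG31468 lie below the floor.

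Of the genes assigned an enzyme class here, CG10163, placed with the lipases, was close to the floor in control. Its log2 intensities were 4.41, 5.07 and 5.41 in control and 8.67, 8.72 and 9.31 in gain. The difference was 3.94 ± 0.30 (SE, n = 3 per group), or 15.3-fold, and the groups were 3.26 apart at their nearest. As in CG34165, control 1 was the lowest and control 3 the highest of the controls, and gain 3 stood above the other gain arrays. Adding 16 to the intensities before the logarithm brought the difference down to 3.37.

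The protease gene CG17571 had log2 intensities of 9.67, 10.15 and 9.54 in control against 11.13, 10.96 and 11.42 in gain, so that the difference was 1.39 ± 0.20 (SE, n = 3 per group), or 2.61-fold. The highest control array, control 2, lay 0.81 below the lowest gain array. The name of its probe set, and that of CG3168, ends in _s_at, which marks probes that can match more than 1 transcript, although the annotation lists a single gene for each.

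The lectin gene CG7763 had the most uneven controls. Its log2 intensity was 7.41, 7.26 and 6.04 in control against 9.64, 9.42 and 10.17 in gain. Control 3 thus lay more than 1 unit below the other controls, the opposite of its place in CG34165 and CG10163. The difference was 2.84 ± 0.39 (SE, n = 3 per group), or 7.16-fold, and 2.41 without control 3.

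The transporter gene CG3168 had closely grouped controls, with log2 intensities of 8.99, 9.10 and 9.16, and values of 11.12, 10.44 and 10.66 in gain. The difference was 1.66 ± 0.18 (SE, n = 3 per group), or 3.17-fold. The gain arrays spanned 0.68 and the controls 0.17, and the lowest gain value, on gain 2, was 1.29 above the highest control.

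The BTB gene CG3726 had log2 intensities of 6.40, 7.03 and 6.91 in control against 8.87, 8.28 and 8.45 in gain. The difference was 1.75 ± 0.22 (SE, n = 3 per group), or 3.37-fold. Control 1 was the low array among the controls and gain 2 among the gain arrays, and the groups were 1.25 apart at their nearest.

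Of the genes without a role given here, CG13482 was the most even. Its log2 intensity was 12.65, 12.72 and 12.71 in control against 14.10, 13.96 and 14.00 in gain, so that the difference was 1.32 ± 0.10 (SE, n = 3 per group), or 2.50-fold. The spread was 0.07 among controls and 0.14 among gain arrays, so the gap of 1.23 between the groups was several times either spread. The measured difference of CG13482 was the smallest of the 10, but with controls held at the floor that of CG31468 was smaller, at 0.95.

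In Srg2 only the controls were nearly level, at 7.90, 7.99 and 7.94. Its gain values of 9.77, 8.73 and 9.43 spanned 1.05, the widest gain range of the 10 genes. Gain 2 was the low array, 0.58 below the gain mean. The difference was 1.37 ± 0.26 (SE, n = 3 per group), or 2.58-fold, and 1.66 without gain 2. The gap of 0.74 between the groups was the narrowest of the 10.

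CG31468 was measured at log2 intensities of 2.92, 3.11 and 3.35 in control, all below the floor, and at 5.23, 4.53 and 5.09 in gain, all above it. With the controls held at the floor it was at least 1.93-fold higher in gain. The reference table gives Tes37 as a synonym of this gene. The tested germline markers ocn and betaTub85D, both known from the testis, were called lower in gain. Of 6 listed germline markers only these 2 were tested, and Mst84Da and Mst87F did not pass the filter. The summed intensity of the 2 ran from 72.5 to 108.3 in control and reached at most 23.4 in gain. That is too low for both to have reached the floor on any gain array, so the size of their fall was not measured. Their part in the result for CG31468 was not tested.

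The arrays ordered the 10 genes in a partly shared way. Gain 2 gave the lowest gain value in 8 of the 10, all but CG34165 and CG10163, whose lowest was on gain 1. Gain 1 gave the highest value in 6 and gain 3 in 4. Control 1 gave the lowest control value in 8, all but CG7763 and CG17571, where control 3 was lowest. Control 3 gave the highest control value in 5 and control 2 in 4. The low place of gain 2 in 8 genes goes with the low median of that array, and its part in them was not tested. Centring the arrays on their median difference put the median of all tests at -0.0007 and that of the 10 genes at 1.94.

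**Figure D2:**
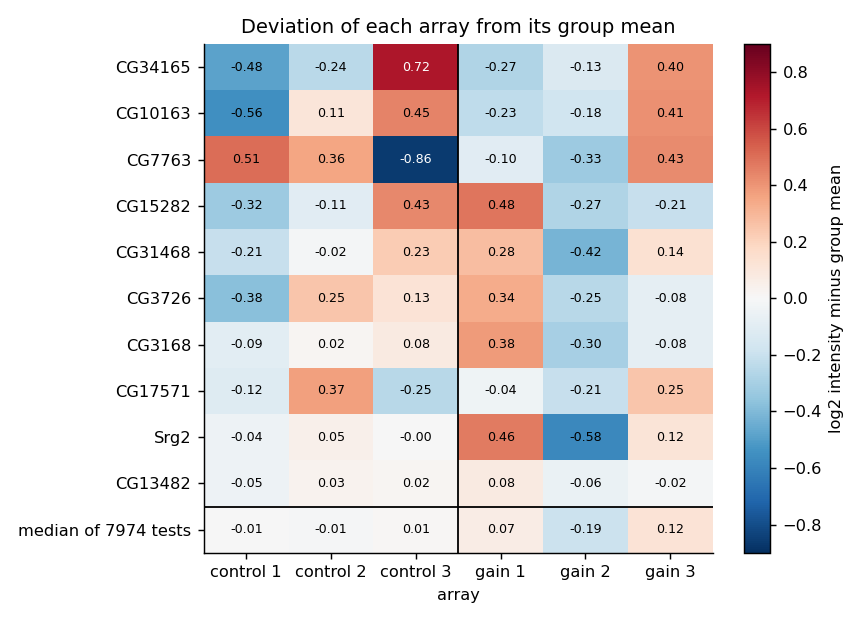
Log2 intensity minus the group mean for each of the 10 genes (rows) on each array (columns), with the median over 7974 tests in the bottom row. Red is above and blue below the group mean. The widest departures are those of CG7763 and CG34165 on control 3, at -0.86 and 0.72, and gain 2 is blue in all 10 rows.

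The choice of genes has an edge. Of 29 tests with a larger difference than CG13482, 9 were of the other genes described here, 3 were called rises of named genes outside the list (Hr96, Zip102B and Prat2), 5 were called rises of probe sets with no gene listed, and 12 were not called. Just inside the edge lay CG17571 at 1.39, Srg2 at 1.37 and CG13482 at 1.32. Just outside lay CG17738 at 1.32, CG8389 at 1.18 and CG14419 at 1.13, which were also called rises whose groups did not overlap. CG17738, at 13.18, 12.99 and 13.06 in control against 14.53, 14.21 and 14.45 in gain, thus differed by nearly the same amount as CG13482.

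**Figure D3:**
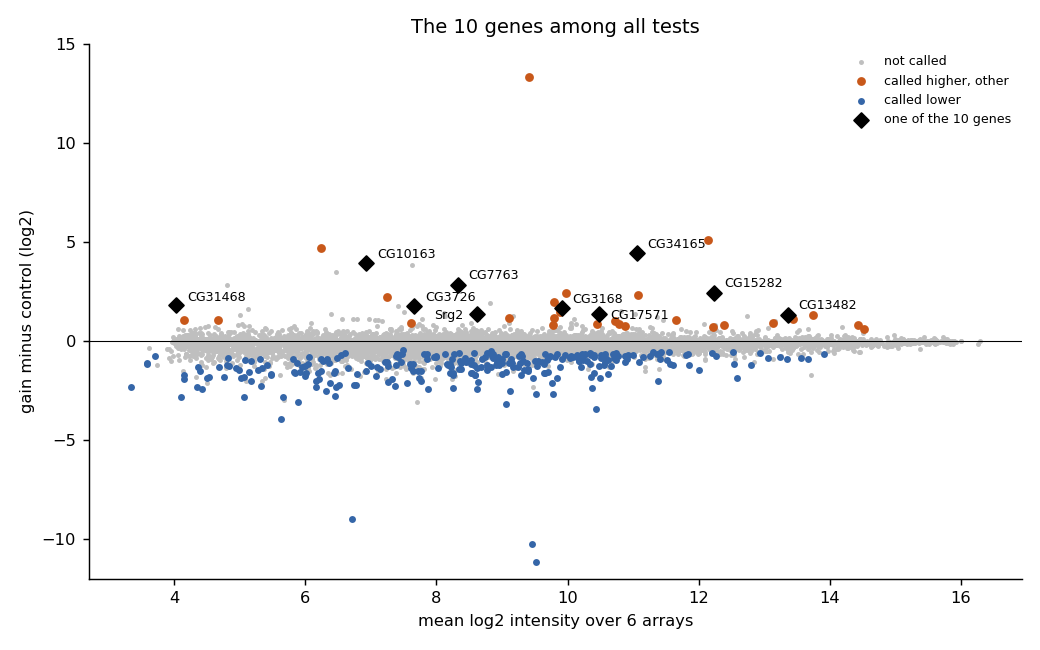
Difference between gain and control in log2 intensity (y axis) against the mean log2 intensity over the 6 arrays (x axis) for 7974 tests. Black diamonds are the 10 genes, orange points other tests called higher, blue points tests called lower and grey points tests not called. The 10 genes lie between 1.32 and 4.43 as measured, CG31468 with its controls below the floor. On the deposited scale 277 tests are called lower and 36 higher, a split that narrows under the other scalings.

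Genes beside the 10 on the chromosomes were looked at next. Among the 5 annotated genes on each side of each gene there were 90 in all, of which 24 were tested. By limma none was called higher, which is near the 0.451% of all tests. Of the 24, 3 (12.5%) were called lower, against 3.47% of all tests. At an unadjusted p under 0.05, 1 (4.17%) was higher and 7 (29.2%) lower, against 2.62% and 18.5% of all tests. The median difference of these 24 was -0.24, against -0.15 for all tests.

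The 3 neighbours that fell were spir, CG10252 and CG32053. The gene spir, which encodes an actin nucleator and lies 4 genes from CG17571, was lower by a log2 difference of -1.91 (n = 3 per group, SE 0.32, adjusted p = 0.0302). CG10252, 2 genes from CG31468, had a measured log2 difference of -1.58 ± 0.22 (adjusted p = 0.0162). Its gain arrays lay near the floor, 1 of them below it, so that it was at least 2.97-fold lower. CG32053, 2 genes from Srg2, had a log2 difference of -0.67 ± 0.12 (adjusted p = 0.0389). These calls ended when control 1, control 2 or gain 1 was left out, with adjusted p-values from 0.051 to 0.176, and those of spir and CG32053 also without gain 2 (0.0856 and 0.0722). The call of CG32053 ended as well without gain 3 (adjusted p = 0.0852) and under the 3 other scalings of the arrays (0.0924 to 0.187).

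At the locus of CG34165 and CG15282 the nearest tested neighbour was CG42685, just beyond CG34165, whose control mean was 4.30 and gain mean 4.36 (adjusted p = 0.77). CG7763 lies within the span of Drip, an aquaporin gene, which stood at -0.72 and did not pass (adjusted p = 0.148), and the next tested gene on the other side, the aquaporin gene Prip, had -0.34 (adjusted p = 0.132). Nearest to CG10163 was Best2, of the bestrophin chloride channels, at -0.32 (adjusted p = 0.448). CG3726 stood between Shmt, for the serine hydroxymethyltransferase, at -0.22 and CG12728 at 0.78, neither of which passed (adjusted p = 0.306 and 0.217). CG3168 stood between CG14442 at -0.12 and the ribosomal protein gene RpL17 at -0.07 (adjusted p = 0.601 and 0.723). Next to Srg2, CG32054 had -0.09 (adjusted p = 0.824), and the tested gene nearest to CG13482, CG3868, had -0.03 (adjusted p = 0.889). Srg2 and CG13482 lie within the spans of dpr6 and fz, which were not tested here.

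**Figure D4:**
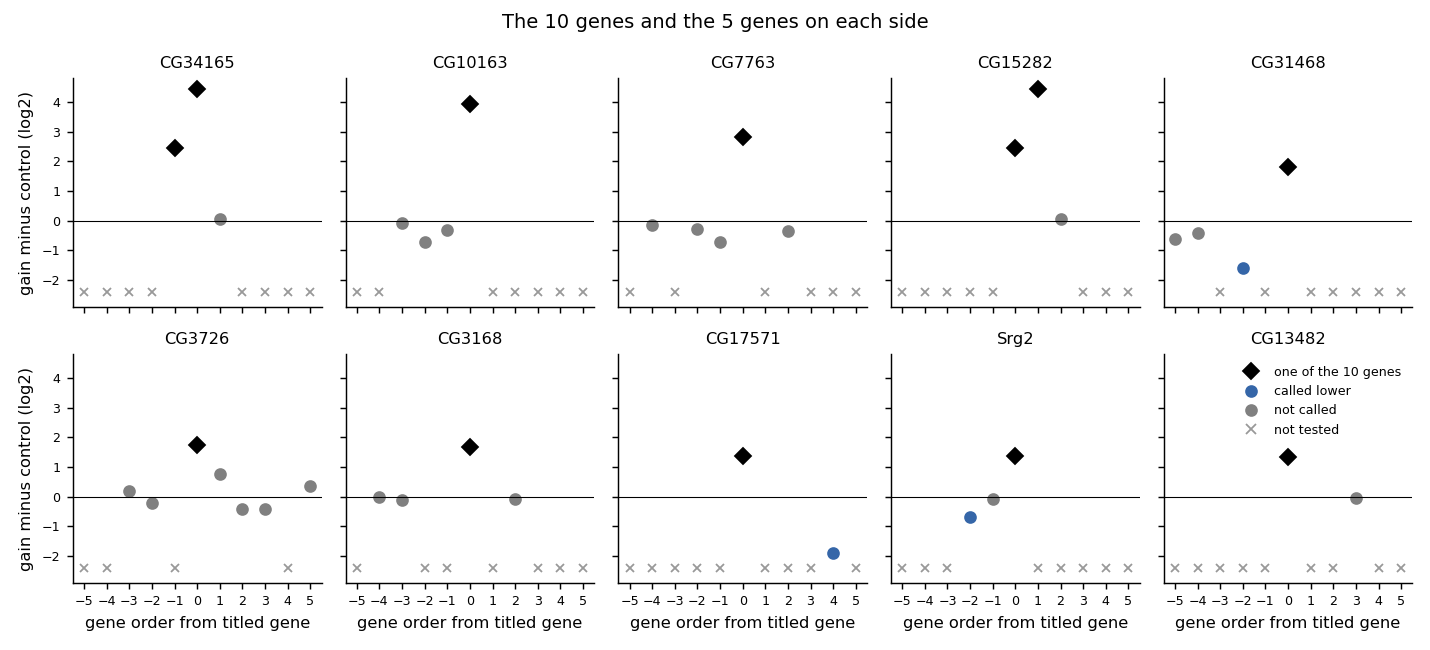
Difference between gain and control in log2 intensity (y axis) for each of the 10 genes, at position 0 of its panel, and for the 5 annotated genes on each side in chromosome order (x axis). Black diamonds are genes of the 10, blue circles neighbours called lower, grey circles neighbours not called, and crosses at the foot genes not tested. CG34165 and CG15282 appear in each other's panels, and CG31468 is drawn at its measured value, with its controls below the floor.

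Other genes of 5 families were then compared, from lists written from general knowledge of the families and not from an annotation. Over the lipase, lectin, BTB, transporter and protease lists, 66 genes other than those 5 were tested. By limma none was called higher, which is near the 0.451% of all tests, and 10 (15.2%) were called lower, against 3.47%. Of these 10, CG5966 and lambdaTry passed the filter through their control arrays alone, so their calls rest on gain values below the floor. At an unadjusted p under 0.05, 2 (3.03%) were higher and 23 (34.8%) lower, against 2.62% and 18.5% of all tests. The median difference was -0.27, against -0.15 for all tests.

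Of 13 other pancreatic-type lipases 2 fell, CG5162 by a difference of -1.44 (n = 3 per group, SE 0.13, adjusted p = 0.00623) and CG5966 by one of at least 2.22-fold, its gain arrays all being below the floor (adjusted p = 0.0045). CG10163, which was chosen for its rise, stood at 3.94, while these 13 lipases had a median of -0.31. Most differences on these arrays were negative, 5980 in the 7974 tests, and so were 12 of the 13 lipases. The exception was Yp3, a yolk protein gene of lipase-like sequence, with means of 8.54 and 9.80 without passing (adjusted p = 0.179).

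Of 17 other trypsin-like proteases 4 fell. They were epsilonTry and betaTry, each with 1 gain array below the floor, lambdaTry, with all 3 below it, and iotaTry. The last had a difference of -0.81 (adjusted p = 0.0243). With values below the floor held there, epsilonTry was at least 1818-fold, betaTry at least 964.7-fold and lambdaTry at least 147.2-fold lower (adjusted p = 9.44e-05, 0.00123 and 3.03e-05). CG17571, at 1.39, lay beside thetaTry at 1.50, which did not pass (adjusted p = 0.0561). Without control 3 it passed, at 1.88 (adjusted p = 0.00573), and it passed under the 3 other scalings at 1.65 to 1.76 (adjusted p = 0.0255 to 0.0394).

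Of 11 other C-type lectins tfc fell, with a log2 difference of -1.63 (n = 3 per group, SE 0.22, adjusted p = 0.0166), and 10 did not pass, CG14499 among them at 1.30 (adjusted p = 0.311). CG14499 passed only without gain 2, at 2.09 (adjusted p = 0.0317), and without control 3 and gain 2, at 1.86 (adjusted p = 0.0127). Of 13 other transporters 3 fell. Orct2, which encodes an organic cation transporter, had a difference of -1.35 ± 0.18 (adjusted p = 0.0146), CG31103 one of -1.52 ± 0.28 (adjusted p = 0.0414) and CG7458 one of -0.47 ± 0.09 (adjusted p = 0.0484). Orct, with the largest negative difference of the list at -1.63, did not pass (adjusted p = 0.0538).

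The calls of tfc, Orct2, CG31103, CG7458 and iotaTry all ended without control 1 or control 2, with adjusted p-values from 0.0626 to 0.24. Without gain 1 those of tfc, CG31103, CG7458 and iotaTry ended (0.0692 to 0.142), and without gain 2 that of iotaTry (0.0569). CG31103 and CG7458 were not called without control 3 or gain 3 either (0.0622 to 0.0959). The call of CG7458 also ended under the 3 other scalings, at differences of -0.33 to -0.22 (adjusted p = 0.18 to 0.373), with a floor of 6 (0.0519) and with an intensity trend (0.0754). That of iotaTry ended under median centring (0.0502). With no filter the calls of tfc, Orct2, CG31103 and iotaTry ended (adjusted p = 0.0629 to 0.144). With the replicate number as a block those of iotaTry, CG31103 and CG7458 ended (0.0517 to 0.108). With controls 1 and 2 averaged each of these calls ended (0.0735 to 0.199).

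None of 12 other BTB genes was called by limma, with 4 lower and none higher at an unadjusted p under 0.05 and differences from -1.09 to 0.20. CG12236, which is both a BTB gene and the gene 3 places from CG3726, was the one at 0.20 (adjusted p = 0.332), with a control mean of 5.50 and a gain mean of 5.70.

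**Figure D5:**
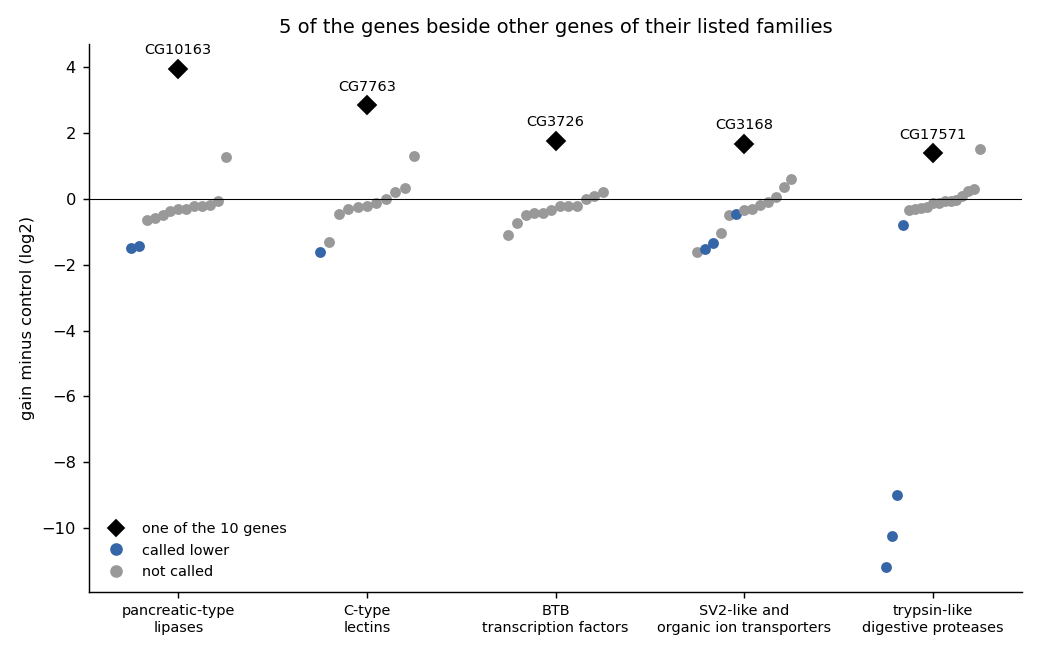
Difference between gain and control in log2 intensity (y axis) for 5 of the 10 genes (black diamonds) and for the other tested genes of their listed families (circles, blue where called lower, grey where not called). Circles are drawn at measured values. Each diamond is above 0, and in the protease list thetaTry, at 1.50, lies level with CG17571.

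Markers of tissues were looked at beside the rises, since fewer cells of a type and less RNA per cell cannot be told apart in RNA of whole larvae. None of 6 haemocyte, 3 fat body, 3 salivary gland, 3 Malpighian tubule, 2 muscle, 1 neuron or 1 cuticle marker tested was called by limma. Over all tests 0.451% were called higher and 3.47% lower, and none among so few markers is near those shares. The neuron list held 5 markers and the cuticle list 6, so most of both were not tested. At an unadjusted p under 0.05, 1 of the markers in these 7 lists, of the tubule, was lower and none higher, against 18.5% and 2.62% of all tests. In the lists that held called markers, 2 of 4 midgut markers and 2 of 2 tested germline markers were lower at that threshold. Of 4 midgut markers betaTry was called lower, and the median difference of the 4 was -0.16. Their summed intensity was 91110 to 94921 in control and 62229 to 67653 in gain, and without betaTry it was 65374 to 70387 and 62221 to 67629, so that betaTry carried most of the drop. The summed intensity of the 3 tested salivary gland markers ran from 1869 to 22416 among controls and from 8061 to 11992 in gain. That of the 3 tested fat body markers ran from 5924 to 28537 among controls and from 6080 to 11331 in gain. The part of these tissues in the values of the 10 genes was not tested.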

How the data were processed

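RNA of whole larvae was measured on 6 arrays, 3 control and 3 gain, as the labels group them. The authors deposited linear intensities, which the submitters' processing notes tie to GCRMA. No version, scanner or genome build is named in the sources used here. The number of arrays limits the precision.

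Probe sets were named from the platform annotation, of which 13647 of 18952 had 1 gene, 402 several, 4720 none and 183 were array controls. Of the named probe sets 13544 matched, by gene ID, the Release 6 plus ISO1 MT gene table, used for symbols and gene order. Log2 values were taken without a pseudocount. Probe sets at a log2 value of 4 or more on at least 3 arrays were kept (8395), with the brightest probe set per gene (7974 tests). The groups were set against each other in limma 3.58.1 (R 4.3.3; lmFit, eBayes), with Benjamini-Hochberg adjustment over all tests and calls at an adjusted p under 0.05. The procedure was tested on simulated data. Tables used Python 3.11.15, pandas 2.3.3 and NumPy 2.4.6, figures Matplotlib 3.10.9.

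The 10 genes, the family lists and the settings were chosen with earlier results of these data known. All 10 genes are named, with called neighbours and family genes, the nearest tested neighbour on each side and the 3 called rises next below; Orct, Yp3, CG14499, CG12236 and thetaTry, and the genes under other observations, were singled out after their values were seen. Of 163 listed family genes 155 matched the gene table. Values below the floor were held there for folds given as at least a value. Settings tried were no filter, a floor of 6, 3 other scalings (quantile, median centring, median difference centring), an intensity trend, a pseudocount of 16, other uses of a gene's probe sets, 2 neighbours on each side, the replicate number as a block, and arrays left out; averaging controls 1 and 2 was added after the data were seen. Protein relatives, promoter motifs and protein features were planned and not analysed here.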

Additional observations from a re-analysis of the deposited data

How the results depend on the processing

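Each of the 10 genes kept a positive difference in all settings in which it was tested. This follows from their choice for large rises with groups that do not overlap, and is no support for the rises. With a floor of 6 CG31468 was not tested. Leaving out 1 array moved their folds by at most 1.35 times. Leaving out arrays gave 12 to 51 higher and 27 to 374 lower calls over all tests, against 36 and 277; leaving out control 1, control 2 or gain 1 moved both counts by more than 1.5 times. It gave 0 to 4 lower among neighbours, against 3, and 0 to 1 higher and 5 to 9 lower among family genes, against 0 and 10. Higher calls over all tests were 17 with no filter, 170 with quantile normalization, 204 with median centring and 129 with median difference centring, beside 281, 252 and 349 lower. They were 129 without control 3 and gain 2, and 13 with controls 1 and 2 averaged. Lower calls were 85 with no filter, 631 without control 3 and gain 2, and 40 with controls 1 and 2 averaged. Lower neighbours were 0 with no filter, 0 with controls 1 and 2 averaged and 6 without control 3 and gain 2. Lower family genes were 6 with no filter, 5 with controls 1 and 2 averaged and 15 without control 3 and gain 2. Higher family genes were 1 with a floor of 6, quantile normalization, median difference centring, an intensity trend or the replicate block, and 2 with median centring or without control 3 and gain 2. The cause was not tested. Deviations of same-numbered samples correlated at 0.21, 0.026 and 0.367. Deviations within a group depend on each other, so these values cannot settle whether the numbers pair the samples. With the replicate number as a block 41 tests were higher and 217 lower, and 2 neighbours and 8 family genes were lower. The difference of Hr96 then stayed at 5.10 (limma, adjusted p = 0.000419). Not every sample correlated best with its own number, since control 2 and gain 1 correlated at 0.343. Controls 1 and 2 differed by an SD of 0.204 over the tests, against 0.31 to 0.482 for the other pairs within a group. Protein relatives, at either threshold, were not run.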

Other observations

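Of the 12 tests that rose more than CG13482 without being called, 4 named genes were singled out after their values were seen because every gain array lay at least 0.61 above every control array on the log2 scale. CG4269 had log2 means of 5.72 in control and 9.54 in gain (limma, adjusted p = 0.0964). Its control arrays were far apart, at 5.33, 3.79 and 8.03, with 1 of them below the floor. The gene vanin-like, of the pantetheinase family, had means of 6.76 and 8.62 (adjusted p = 0.0613), and thetaTry of 10.06 and 11.56 (adjusted p = 0.0561). The fourth, aay, which encodes a phosphoserine phosphatase, had means of 10.36 and 11.70 (adjusted p = 0.0771).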
